A study of Mus musculus with 12 samples.

Results

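Retinoid metabolism and binding genes make, carry and bind derivatives of vitamin A: here they are Adh1, Adh7, Aldh1a1, Aldh1a2, Aldh1a3, Crabp1, Crabp2, Rbp4 and Rarres2. They were chosen by symbol and are 9 of the 27998 genes counted in each library of mouse joint cells. Retinol travels in blood bound to retinol-binding protein, the product of Rbp4. In cells, alcohol dehydrogenases such as those of Adh1 and Adh7 can oxidise retinol to retinaldehyde, retinaldehyde dehydrogenases (Aldh1a1, Aldh1a2, Aldh1a3) make retinoic acid from it, and retinoic acid acts through nuclear receptors. Cellular retinoic acid-binding proteins (Crabp1, Crabp2) hold retinoic acid in the cytoplasm, and Rarres2 encodes chemerin, a secreted chemoattractant and adipokine first described as a retinoid-responsive gene.

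The cells came from hind limb joints of wild-type C57BL/6 male mice, 8 to 10 weeks old, given 100 µl of serum from arthritic K/BxN mice by the intravenous route, which brings on a passing joint inflammation. Of the labels, rest stands for day 0, peak for days 7 to 9, resolving for day 15 and resolved for day 22, with 3 libraries to each and the cells of 3 animals pooled in each, so every p-value below is over pools. Live CD45-negative cells were sorted, which leaves out most leukocytes, and mRNA was counted with the 10x Genomics 3′ version 2 kit, Cell Ranger and the mm10 genome. The 12 libraries held 21042 cells and from 7969872 (rest 3) to 17047322 (resolved 2) unique molecular identifiers (UMIs, a count of mRNA molecules) each. After filtering, 20060 cells were kept, from 1227 in resolving 1 to 2747 in resolved 2, with a median per library of 5231.5 to 5562 UMIs a cell, and 0 cell barcodes were shared between libraries.

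Cells were grouped by genes other than these 9 and a further 57 retinoid pathway genes, and groups were named from marker genes. Fibroblast-like cells were 10205 cells (50.87%), in clusters with at least 5 of 7 fibroblast markers that fell short of the marker set of any other class and whose leading genes did not hold more markers of another class than of their own. The other named classes were tenocyte (1930 cells), vascular endothelial (1768), osteoblast (1397), perivascular (655), proliferating (654), muscle (397), chondrocyte (314), lymphatic endothelial (186), immune (112), Schwann (110) and erythroid (63), and 2269 cells kept no name. Tenocyte, osteoblast and proliferating clusters also had at least 5 of the 7 fibroblast markers. So did the unnamed clusters 4 (1549 cells, 1407 of them from libraries with barcode suffixes 7 to 9; 7 markers) and 11 (692 cells; 6 markers), which are left out of fibroblast-like cells below because a marker of another class was among their leading genes and none of fibroblasts was. Fibroblast-like cells fell into 7 clusters, called here by number: cluster 0 (2584 cells; led by Inmt, C4b and Penk), cluster 1 (2058; Dpp4 and Pi16, with sublining markers), cluster 2 (1937; Cxcl5, Saa3 and Sfrp1), cluster 7 (1108; Prg4 and Clic5, with lining markers), cluster 8 (866; Nppc and Egfl6), cluster 9 (829; Mmp11 and Fbln7) and cluster 10 (823; Ccl11 and Hmcn2).

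The libraries resembled each other by barcode suffix rather than by label. Each cell barcode ends in a suffix from 1 to 12 that numbers its library, and over 11514 genes in fibroblast-like cells the most alike library of 11 of the 12 lay in the same run of suffixes (1 to 3, 4 to 6, 7 to 9 or 10 to 12). For 1 of the 12, peak 1, whose most alike library was peak 3, it carried the same label. Suffixes 1 to 3 are rest 1, peak 1 and resolving 1, suffixes 4 to 6 are resolved 1, rest 2 and peak 2, suffixes 7 to 9 are resolving 2, resolved 2 and rest 3, and suffixes 10 to 12 are peak 3, resolving 3 and resolved 3. Whether each label belongs to its library cannot be told from these files, and values by label are given as labelled. Results are therefore given by label and by suffix run, and comparisons of cell types or clusters are made within libraries. The runs were taken up because earlier work on these same data had shown this likeness. The likeness and the p-values between runs thus describe the grouping and are not separate evidence for it.

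Levels are counts per 1e6 UMIs (CPM) of a class or cluster in a library, given as the mean ± SD over the n libraries that held at least 10 of its cells. A gene is called when its edgeR quasi-likelihood p, adjusted by Benjamini-Hochberg over all genes tested, is under 0.05 and its log2 fold change is over 0.5 in size.

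The 9 genes were lower in other classes than in fibroblast-like cells in most tests. Over 10 comparisons of a class with fibroblast-like cells in the same libraries, the 9 genes gave 90 tests, of which 63 were lower in the class and 5 higher, where 20.1% and 13.9% of all tests over 10440 genes were. In 13 of the 63 the class held 0 UMIs of the gene, and in 50 it held some. The other 22 were not called. By class mean fibroblasts came first for 2 of the 9, Adh7 and Aldh1a2. The 5 higher were Adh1 in vascular endothelial cells, Crabp1 and Rbp4 in osteoblasts, Crabp2 in proliferating cells and Aldh1a1 in muscle cells.

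Endothelial and perivascular cells held lower levels of most of the 9 genes than fibroblasts did. In vascular endothelial cells 1 of the 9 genes was higher and 8 lower, where 52.7% of all genes were called, with a median log2 fold change of -4.16 against 0.01 for all genes. In lymphatic endothelial cells 8 were lower (37.6% of all genes called), with a median of -5.06, or -3.06 with genes at 0 UMIs set to their bound, and in perivascular cells 7 were lower (39.5%), with a median of -4.06 or -3.67. That bound sets 3 counts over the class against the fibroblast mean of all 12 libraries, not only those that held the class. The members not called lower in these 3 classes were Adh1 in vascular endothelium, Rarres2 and Aldh1a1 in perivascular cells and Crabp1 in lymphatic endothelium.

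Skeletal and muscle classes were mixed. In osteoblasts 2 genes were higher and 6 lower (29.0% of all genes called; median -1.39), in chondrocytes 8 were lower (46.8%; median -3.65), and in muscle cells 1 was higher and 8 lower (44.8%; median -3.10). Tenocytes had 3 genes lower (18.4%) and the median nearest to 0 of the 10 classes, -0.44. In proliferating cells 1 was higher and 6 lower (27.2%; median -1.07), in immune cells 7 were lower (30.2%; median -7.20, or -2.05 at the bound), and in Schwann cells, with 3 libraries, 2 were lower (14.4%; median -1.27, or -1.13 at the bound). The median of all genes ran from -0.46 (immune) to 0.01 (vascular endothelial) here and from -0.33 to 0.28 when scaled by total counts alone, and 5 members were higher under that scaling too.

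**Figure D1:**
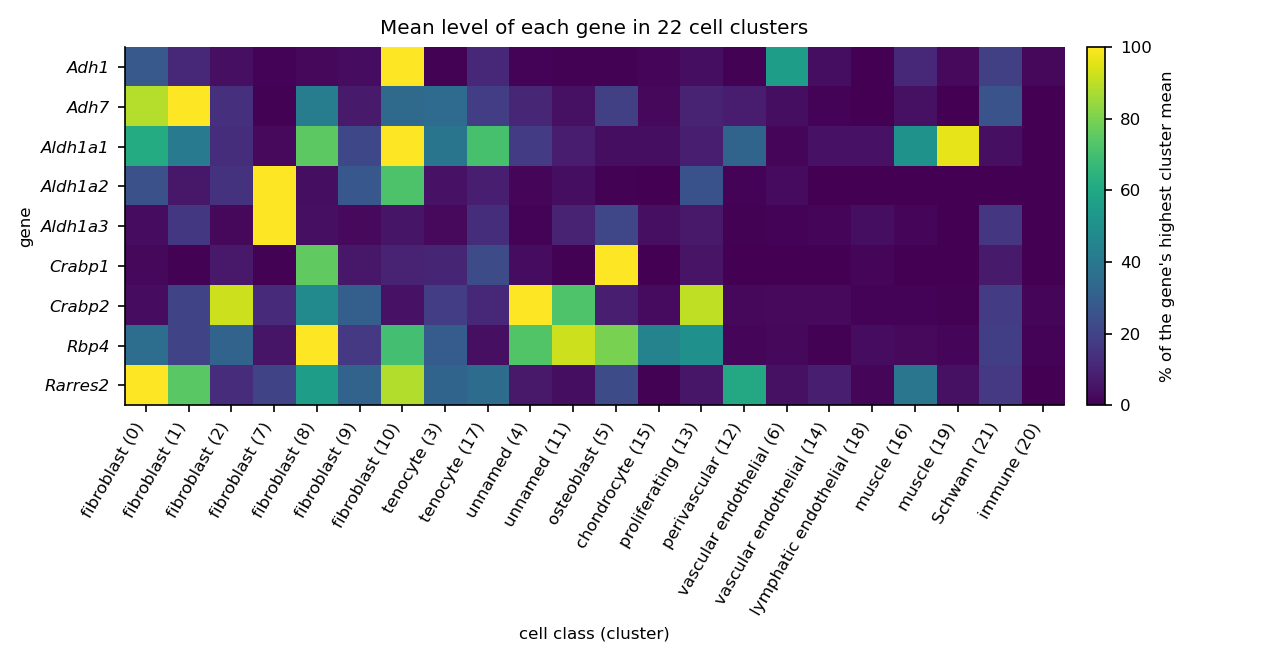
Heat map of the 9 genes (vertical axis) in 22 cell clusters (horizontal axis), with colour for the mean CPM over libraries as a percentage of that gene's highest cluster mean. Cluster 22, of erythroid cells in 2 libraries, where Aldh1a1 had a mean of 100 CPM, is left out. Among those shown the highest mean of 7 genes lies in a fibroblast cluster, that of Crabp1 in osteoblasts (82.2 CPM) and that of Crabp2 in the unnamed cluster 4 (411 CPM).

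Adh1, an alcohol dehydrogenase that oxidises retinol and ethanol, was highest among tested classes in vascular endothelium. Its level there was 10.4 CPM in the lowest library, 40.4 in the median and 97.3 in the highest, against 9.97, 22.0 and 52.9 in fibroblast-like cells. The ranges overlapped widely, but endothelial cells had more in 11 of 12 libraries (log2 fold change 0.77, SE 0.18, adjusted p = 0.000172). The mRNA sat in one of the endothelial clusters: cluster 6 (Aqp7, Car4, Gpihbp1) held 104 ± 29.6 CPM (n = 12) and cluster 14 (Selp, Plvap, Vwf) 7.09. Fibroblast cluster 10 had a higher mean than both, 188 ± 95.7 (n = 12), though not beyond the spread above cluster 6. Means in the other classes were 35.4 ± 17 in Schwann cells (n = 3), 25.6 ± 13.5 in fibroblasts (n = 12), 10.9 ± 6.17 in muscle (n = 9), 7.15 ± 12.3 in proliferating cells (n = 6), 4.36 ± 7.55 in immune cells (n = 3), 4.25 ± 6.46 in tenocytes (n = 12), 3.27 ± 3.14 in chondrocytes (n = 8), 1.29 ± 1.78 in osteoblasts and 1.08 ± 2.03 in perivascular cells (n = 12 each). No neighbours in that order differed beyond their spread. Lymphatic endothelial cells held 0 UMIs in 10 libraries, where fibroblasts held from 9.97 to 46.4 CPM, and were called lower. Their floor, 3 counts over the class, was 4.03 CPM, and floors of other classes at 0 UMIs are set in the same way.

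Adh7, an alcohol dehydrogenase with high activity on retinol, had its highest class mean in fibroblasts. Its class means were 32.0 ± 18.3 CPM in fibroblasts, 23.0 ± 11.2 in tenocytes (n = 12 each), 17.7 ± 8.48 in Schwann cells (n = 3), 13.1 ± 6.12 in osteoblasts (n = 12), 6.56 ± 3.07 in proliferating cells (n = 6) and 5.44 ± 11.1 in perivascular cells (n = 12). Vascular endothelium, muscle and chondrocytes had 1.54 ± 2.08, 1.52 ± 3.32 and 1.42 ± 1.92, and no neighbours in the order differed beyond their spread. It was lower than in fibroblasts in 12 of 12 libraries for vascular endothelium (-4.15, SE 0.28, adjusted p = 1.72e-23) and in 11 of 12 for osteoblasts (-1.39, SE 0.19, adjusted p = 1.93e-09). Tenocytes were not called (-0.44, adjusted p = 0.0469, lower in 8 of 12), though they were with total counts, without upper limits on genes and UMIs and with the highest doublet scores removed. The gene was at 0 in lymphatic endothelial and immune cells, with floors of 4.03 and 8.39 CPM, and called lower in both. Fibroblasts held from 11.7 to 49.7 in the 10 libraries with lymphatic cells and 16.4, 22.9 and 17.8 in the 3 with immune cells.

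Aldh1a1, a retinaldehyde dehydrogenase of broad tissue range, had its highest means among tested classes in muscle, tenocytes, fibroblasts and perivascular cells. The muscle class was mostly cluster 16 (265 of 397 cells; led by Myod1, with Pax7 and Myf5), with cluster 19 (132; Acta1 and Ckm) as the rest. Means were 47.5 ± 23.9 CPM in muscle (n = 9), 30.9 ± 13.8 in tenocytes, 26.5 ± 11.6 in fibroblasts and 23.4 ± 18.4 in perivascular cells (n = 12 each), and no neighbours among these 4 differed beyond their spread. Lower means, with perivascular cells not above proliferating cells beyond the spread, followed in proliferating (6.19 ± 2.89, n = 6), lymphatic endothelial (3.51 ± 7.51, n = 10), Schwann (3.10 ± 5.37, n = 3), osteoblast (2.81 ± 2.72, n = 12), chondrocyte (2.75 ± 5.22, n = 8) and vascular endothelial cells (2.02 ± 1.77, n = 12), with no neighbours among these beyond their spread. Immune cells held 0 UMIs in 3 libraries, where fibroblasts held 12.8, 20.9 and 14.1 CPM. Immune cells were called lower, a call that ended with RLE size factors or thinned cells. Their floor of 8.39 CPM lies above those 6 means, so their place among them is not known. Muscle cells ranged from 0 to 74.3 CPM with a median of 45.9, overlapping fibroblasts, and were higher in 7 of 9 libraries (0.73, SE 0.28, adjusted p = 0.0282). That call ended without rest 3 (0.63), resolving 1 (0.71), resolving 3 (0.65), resolved 1 (0.67) or resolved 3 (0.58), with DESeq2, without a filter on low counts, with the highest doublet scores removed, and with cells thinned to 2000 UMIs, where the value was -0.17. Aldh1a7, a near-identical paralog, had a UMI in 5 of 10205 fibroblasts (0.049%). How reads that fit both genes were counted, and whether any Aldh1a1 counts belong to Aldh1a7, was not tested. In erythroid cells, present in 2 libraries and not tested, Aldh1a1 was at 96.1 and 104 CPM and Adh1 at 39.0 and 64.1.

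Aldh1a2, a retinaldehyde dehydrogenase of embryonic mesoderm and serosal mesothelium, had its highest class mean in fibroblasts. It was lower than in fibroblasts in all 10 classes tested. Means were 30.8 ± 10.4 CPM in fibroblasts (n = 12) and 27.6 ± 22.3 in proliferating cells (n = 6), then 6.34 ± 6.14 in tenocytes, 1.30 ± 1.16 in vascular endothelium, 1.28 ± 2.44 in perivascular cells and 0.482 ± 1.13 in osteoblasts (n = 12 each). No neighbours among these differed beyond their spread. Osteoblasts were lower in 12 of 12 libraries (-5.97, SE 0.38, adjusted p = 1.65e-22), as were vascular endothelial cells (-4.66, SE 0.31, adjusted p = 2.84e-22) and tenocytes (-2.26, SE 0.22, adjusted p = 1.24e-13). The remaining 5 classes held 0 UMIs. Their floors were 0.785 CPM in chondrocytes, 2.15 in muscle, 4.03 in lymphatic endothelium, 8.39 in immune cells and 14.8 in Schwann cells. Fibroblasts held from 20.5 to 58.1 over all libraries, and 26.7, 20.5 and 21.3 in the 3 with Schwann cells. The proliferating call (-0.68, SE 0.21, adjusted p = 0.00829, lower in 4 of 6 libraries) ended without peak 2 (-0.52) or resolved 2 (-0.48), without the library block or at the coarser clustering, and the Schwann call ended with DESeq2, RLE size factors or total counts.

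Aldh1a3, a retinaldehyde dehydrogenase known from eye and nasal development, had like class means in fibroblasts and osteoblasts. Among fibroblasts it was high in cluster 7 (167 CPM), and the other clusters had means of 3.55 to 27.2, under that of osteoblasts. Means were 35.4 ± 13.3 CPM in osteoblasts, 34.7 ± 20.9 in fibroblasts (n = 12 each), 26.5 ± 38.2 in Schwann cells (n = 3), 11.4 ± 3.34 in proliferating cells (n = 6), 7.26 ± 5.94 in tenocytes (n = 12), 6.65 ± 7.57 in chondrocytes (n = 8) and 6.28 ± 10.4 in lymphatic endothelium (n = 10). Vascular endothelium, muscle and perivascular cells had 1.46 ± 1.58, 1.31 ± 2.74 and 0.833 ± 1.74, and no neighbours differed beyond their spread. Osteoblasts were higher in 6 of 12 libraries and lower in 6 (-0.03, SE 0.18, adjusted p = 0.938). Tenocytes were lower in 11 of 12 (-2.46, SE 0.25, adjusted p = 3.07e-14) and vascular endothelium in 12 of 12 (-4.65, SE 0.35, adjusted p = 2.23e-22). Immune cells, at 0 UMIs (floor 8.39 CPM), were called lower, where fibroblasts of their 3 libraries held 11.3, 24.6 and 16.3.

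Crabp1, a cellular retinoic acid-binding protein, had its highest class mean in osteoblasts. Osteoblasts held 9.49 CPM in the lowest library, 86.9 in the median and 176 in the highest, against 0.853, 5.70 and 25.1 in fibroblasts. Osteoblasts were higher in 12 of 12 libraries although the pooled ranges overlapped at their ends (3.47, SE 0.22, adjusted p = 2.27e-23). The osteoblast mean of 82.2 ± 51.5 lay beyond its spread above tenocytes (10.3 ± 11.8, n = 12), and the order went on with fibroblasts (7.34 ± 6.55, n = 12), Schwann (5.86 ± 10.2, n = 3), proliferating (4.45 ± 5.28, n = 6), lymphatic endothelial (1.49 ± 4.71, n = 10), muscle (1.26 ± 3.79, n = 9) and chondrocyte cells (0.248 ± 0.460, n = 8), with no neighbours beyond their spread. Vascular endothelial and perivascular cells held 0 UMIs and were at least 18.2-fold and 7.43-fold lower than fibroblasts, and immune cells held 0 too, with too few UMIs in all for a fold. The muscle call (-3.38, SE 1.22, adjusted p = 0.0177, lower in 9 of 9) ended without rest 1 (-2.90), peak 3 (-3.18) or resolving 1 (-3.06), with DESeq2, without the library block or at the coarser clustering. The perivascular call also ended at the coarser clustering, and the chondrocyte call ended there and with thinned cells.

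Crabp2, which hands retinoic acid to its nuclear receptor, had its highest mean among the named classes in proliferating cells. In 6 libraries these cells held from 337 to 404 CPM with a median of 366, where the fibroblasts of the same libraries held 172, 187, 203, 271, 295 and 348. Every one of the 6 lay above the fibroblasts of its own library (0.91, SE 0.24, adjusted p = 0.00185), by least in rest 2 (355 against 348). Proliferating cells came nearly all from suffix runs 4 to 6 (458 cells) and 7 to 9 (181 cells). The call ended with DESeq2, without upper limits on genes and UMIs, at a coarser clustering and with retinoid genes used in clustering. Their mean was 372 ± 27.4, under those of the unnamed cluster 4 (411) and fibroblast cluster 2 (380), and that of fibroblasts over all libraries, of which 6 had too few proliferating cells to be counted, was 146 ± 114 (n = 12). Lower means followed without gaps beyond the spread: 73.1 ± 31.0 in tenocytes (n = 12), 73.0 ± 68.0 in Schwann cells (n = 3), 34.5 ± 18.3 in osteoblasts (n = 12), 16.2 ± 41.0 in muscle (n = 9), 12.8 ± 17 in chondrocytes (n = 8), 9.48 ± 8.21 in perivascular cells, 7.36 ± 6.30 in vascular endothelium (n = 12 each), 7.34 ± 6.69 in immune cells (n = 3) and 3.23 ± 10.2 in lymphatic endothelium (n = 10). The muscle mean rested on rest 3 (125 CPM), with a median of 0. Vascular endothelium was lower than fibroblasts in 12 of 12 libraries (-4.43, SE 0.33, adjusted p = 3.48e-22).

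Rbp4, the serum carrier of retinol, made mainly by liver, had its highest mean among the named classes in osteoblasts, though fibroblast cluster 8 (179 CPM) and the unnamed cluster 11 (165) had higher ones. These held from 61.3 to 274 CPM with a median of 129, against 32.8 to 90.9 with a median of 59.1 in fibroblasts, and the ranges overlapped. Osteoblasts were higher in 10 of 12 libraries (1.09, SE 0.23, adjusted p = 6.47e-05), a call that ended with DESeq2. Means were 144 ± 65.6 in osteoblasts (n = 12), 90.0 ± 38.7 in proliferating cells (n = 6), 80.0 ± 113 in chondrocytes (n = 8), 57.9 ± 18.4 in fibroblasts, 46.7 ± 19.9 in tenocytes (n = 12 each), 33.2 ± 20.1 in Schwann cells (n = 3) and 25.9 ± 68.2 in muscle (n = 9). The muscle mean rested on resolved 2 (207 CPM), with a median of 0. Lymphatic endothelial, vascular endothelial, perivascular and immune cells had 6.02 ± 6.62, 3.14 ± 3.39, 2.51 ± 4.05 and 1.49 ± 2.58, and no neighbours in the whole order differed beyond their spread. Vascular endothelium was lower than fibroblasts in 12 of 12 libraries (-4.16, SE 0.43, adjusted p = 4.22e-15). In fibroblast sums a list of 4 hepatocyte genes added up to 0 to 1.22 CPM per library, with Serpina1a the most abundant and Ttr at 0.

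Rarres2, the chemerin gene, was shared by fibroblasts and the cells around vessels. Perivascular cells held 455 ± 62.5 CPM and fibroblasts 388 ± 167 (n = 12 each), 6 libraries higher and 6 lower (0.04, SE 0.17, adjusted p = 0.89). Tenocytes followed at 247 ± 63.5 (-0.49, SE 0.17, adjusted p = 0.024, lower in 10 of 12, under the fold threshold), then osteoblasts at 172 ± 44.9 (n = 12 each), muscle at 164 ± 71.4 (n = 9), Schwann cells at 124 ± 86.0 (n = 3), proliferating cells at 45.3 ± 27.2 (n = 6), vascular endothelium at 43.7 ± 13.9 (n = 12), lymphatic endothelium at 13.6 ± 35.5 (n = 10) and chondrocytes at 5.38 ± 5.37 (n = 8). No neighbours down to chondrocytes differed beyond their spread. The lymphatic mean rested on resolved 1 (112 CPM), with a median of 0. Chondrocytes were lower in 8 of 8 libraries (-5.61, SE 0.35, adjusted p = 1.49e-26) and vascular endothelium in 12 of 12 (-3.38, SE 0.20, adjusted p = 9.73e-29). Immune cells, at 0 UMIs (floor 8.39 CPM), were called lower, where fibroblasts of their 3 libraries held 168, 316 and 231. The tenocyte value passed the thresholds under 12 alternatives: total counts, no filter on low counts, no upper limits, highest doublet scores removed, thinned cells, no library block, and without rest 2, rest 3, peak 2, resolving 2, resolved 1 or resolved 2.

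Within fibroblasts the same genes split between clusters. Each cluster was compared with the mean of the other clusters' log levels in the same libraries, over 7849 genes. Of 63 tests of a member, 26 were higher and 26 lower, where 11.6% and 10.4% of all tests were. In 8 of the 26 higher calls the cluster lay under the plain mean CPM of the other clusters in most libraries, since a cluster with a very low level weighs more on the log scale, and in 18 it lay above; 0 of the 26 lower calls turned. The 8 were Aldh1a2 (0.72, not called with thinned cells or without the library block) and Rbp4 (0.68, not called with total counts) in cluster 0, Adh1 (1.04), Aldh1a3 (1.02) and Aldh1a1 (0.53) in cluster 1, Adh7 in clusters 8 (1.21) and 10 (1.16) and Crabp2 in cluster 9 (0.86). In what follows the 18 come first, and "higher in 12 of 12" below counts libraries on the log scale of the test.

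Cluster 7, with lining markers, held the most Aldh1a3 of the 7 clusters, a high level of Aldh1a2 and less of the other members. Of the 9 genes 2 were higher in it and 7 lower, where 32.2% of all genes were called, with a median of -2.32 against -0.01 for all genes. Aldh1a3 was at 60.8 CPM in its lowest library, 151 in the median and 306 in the highest, a mean of 167 ± 80.7 against 10.3 in the other clusters. Every library lay above the others (4.36, SE 0.14, adjusted p = 1.17e-40, higher in 12 of 12). Aldh1a2 ran from 36.1 through 98.2 to 258 CPM, a mean of 110 ± 76.1 against 27.9 (2.54, SE 0.17, adjusted p = 1.35e-22, higher in 12 of 12). Its mean of Aldh1a2 lay above that of cluster 10 in libraries 4 to 6 (220 against 116) and 7 to 9 (104 against 62.8) and below it in 1 to 3 (76.9 against 97.6) and 10 to 12 (39.1 against 40.2). The lower genes were Adh7 (-5.07), Aldh1a1 (-3.97), Adh1 (-3.28), Rbp4 (-2.78), Crabp1 (-2.32), Rarres2 (-1.35) and Crabp2 (-0.87). Crabp2 was higher in 6 libraries and lower in 6 on the log scale, and under the plain mean of the others in 12 of 12. The Crabp1 call ended without rest 3 (-1.92) or resolved 1 (-2.18), with thinned cells and with the highest doublet scores removed.

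Cluster 10, led by Ccl11, carried Adh1, Aldh1a1 and Aldh1a2 together. In it 6 genes were higher and 1 lower, where 18.2% of all genes were called, with a median of 1.16 against -0.01. Adh1 ran from 38.0 through 161 to 334 CPM, a mean of 188 ± 95.7 against 16.8 in the other clusters (4.41, SE 0.16, adjusted p = 7.75e-36, higher in 12 of 12). Aldh1a2 ran from 15.5 through 76.5 to 141, a mean of 79.1 ± 45.4 against 32.8 (2.23, SE 0.23, adjusted p = 1.08e-12, higher in 11 of 12), and Aldh1a1 from 28.3 through 71.0 to 130, a mean of 72.4 ± 28.8 against 28.4 (2.09, SE 0.16, adjusted p = 2.76e-18, higher in 12 of 12). An alcohol dehydrogenase and a pair of retinaldehyde dehydrogenases thus had high levels in the same cluster. Rbp4 had a mean of 126 ± 73.6 against 63.8 (1.47, SE 0.20, adjusted p = 7.46e-09, higher in 12 of 12) and Rarres2 666 ± 196 against 409 (1.16, SE 0.13, adjusted p = 5.54e-11, higher in 11 of 12). Adh7 was called higher on the log scale (1.16) but lay under the plain mean of the others, 23.9 against 32.4 CPM, and Crabp2 was the lower gene (-2.22).

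Cluster 8, led by Nppc and Egfl6, carried the binding proteins. In it 5 genes were higher and 3 lower, where 31.3% of all genes were called, with a median of 1.21 against 0.00. Crabp1 ran from 12 through 53.9 to 116 CPM, a mean of 62.1 ± 32.1 against 3.03 in the other clusters (5.54, SE 0.32, adjusted p = 1.56e-25, higher in 12 of 12). Rbp4 ran from 47.7 through 171 to 287, a mean of 179 ± 61.4 against 54.4 (2.18, SE 0.16, adjusted p = 1.8e-19, higher in 12 of 12), and Crabp2 from 127 through 184 to 340, a mean of 196 ± 60.7 against 79.6 (1.91, SE 0.24, adjusted p = 1.96e-10, higher in 12 of 12). All 3 retinoid-binding proteins were thus high in one cluster. Aldh1a1, at 54.1 against 31.9 CPM, was higher too (1.60, SE 0.16, adjusted p = 2.71e-14, higher in 12 of 12), while Adh7 (1.21) lay at 29.0 against 31.5 by the plain mean. Aldh1a2 (-3.51), Adh1 (-2.06) and Aldh1a3 (-1.23, not called without upper limits on genes and UMIs) were lower.

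Clusters 0 and 1 shared Adh7 and Rarres2. In cluster 0, 6 genes were higher and 2 lower (19.3% of all genes called; median 0.72), and in cluster 1, with sublining markers, 5 were higher and 2 lower (16.9%; median 0.53). Adh7 ran from 46.1 through 62.1 to 118 CPM in cluster 1, a mean of 68.9 ± 20.7 against 23.4 (2.66, SE 0.14, adjusted p = 1.54e-26, higher in 12 of 12). In cluster 0 it ran from 34.3 through 52.6 to 104, a mean of 61.2 ± 21.6 against 25.4 (2.53, SE 0.15, adjusted p = 1.15e-24, higher in 12 of 12). Both means lay above those of the remaining 5 clusters, though that of cluster 0 was not above cluster 8 (29.1) beyond the spread. Rarres2 ran from 630 through 748 to 919 CPM in cluster 0, a mean of 752 ± 87.9 against 389 (1.58, SE 0.12, adjusted p = 9.68e-19, higher in 12 of 12), and had a mean of 558 ± 95 against 425 in cluster 1 (0.84, SE 0.13, adjusted p = 1.24e-07, higher in 12 of 12). Cluster 0 also had more Adh1, 52.6 against 43.2 CPM (2.47, SE 0.17, adjusted p = 3.21e-21, higher in 12 of 12), and Aldh1a1, 44.6 against 33.8 (1.48, SE 0.13, adjusted p = 9.33e-16, higher in 12 of 12). Scaling by total counts moved the median of all genes in cluster 0 from 0.00 to -0.20.

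Clusters 2 and 9, which came mostly from suffix runs 4 to 6 and 7 to 9, had Crabp2 as their single higher gene, though in cluster 9 it lay above the plain mean of the others in 4 of 10 libraries. In cluster 2, present in 6 libraries, 1 gene was higher and 6 lower (25.3% of all genes called; median -0.82), and in cluster 9, present in 10, 1 was higher and 5 lower (10.7%; median -0.80). Crabp2 in cluster 2 ran from 333 through 369 to 443 CPM, a mean of 380 ± 46.7 against 100.3 in the other clusters (2.42, SE 0.25, adjusted p = 2.97e-13, higher in 6 of 6). Every library of cluster 2 lay above the mean of the other clusters, though in peak 2 cluster 9 was at 343 CPM against 340. Rarres2 in cluster 2 was lower at 94.5 against 454 CPM (-1.95, SE 0.22, adjusted p = 7.29e-12, lower in 6 of 6). Some of the remaining calls rest on single libraries. The cluster 9 calls of Crabp2 (0.86) and Aldh1a3 (-1.45) ended without rest 3 (0.69), peak 2 (0.65) or resolved 2 (0.87) for Crabp2 and without resolving 2 (-1.01), resolving 3 (-1.32) or resolved 2 (-1.61) for Aldh1a3, both ended without upper limits on genes and UMIs or with at least 30 cells per sum, Crabp2 also with DESeq2 and Aldh1a3 with thinned cells or the highest doublet scores removed. In cluster 2, Adh7 (-0.79) ended without rest 2 (-0.70), peak 2 (-0.69) or resolved 3 (-0.63), and Aldh1a2 (-0.82) without rest 3 (-0.66) or peak 2 (-0.69), both with thinned cells, Adh7 also with the highest doublet scores removed and Aldh1a2 without the library block. In cluster 1, Aldh1a1 (0.53) fell under the thresholds without rest 2 (0.48), rest 3 (0.50), resolved 1 (0.49) or resolved 3 (0.48), or with RLE size factors.

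**Figure D2:**
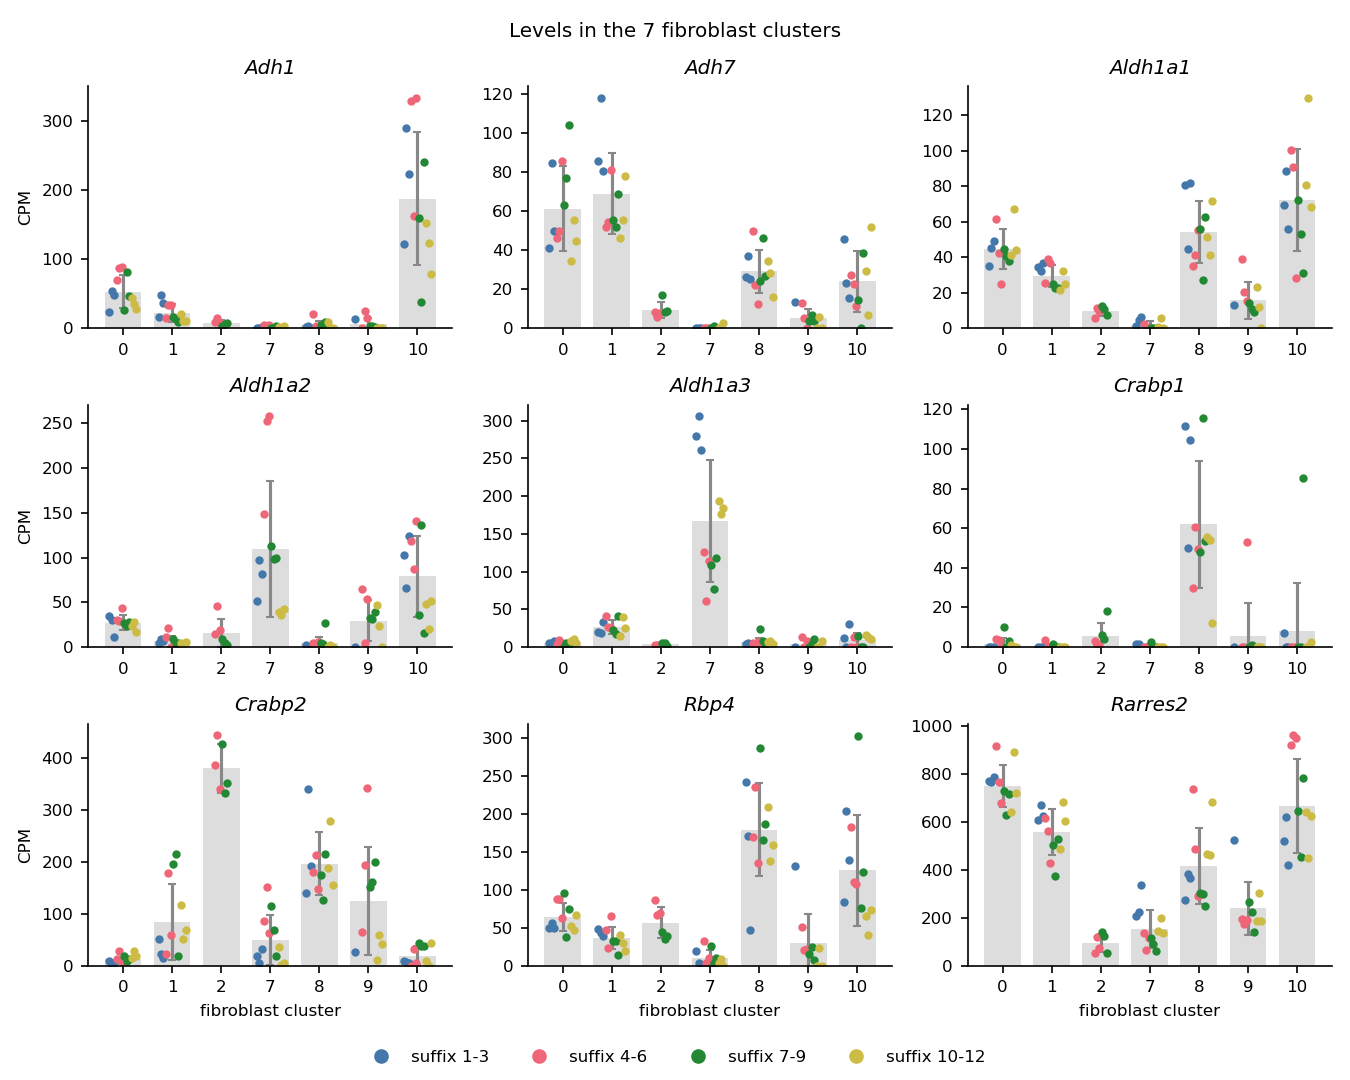
Level of each of the 9 genes in CPM (vertical axis) in the 7 fibroblast clusters (horizontal axis), with bars for the mean, error bars for the SD over libraries and points for libraries coloured by suffix run. Aldh1a3 stands out in cluster 7 (mean 167), Adh1 in cluster 10 (188) and Crabp1 in cluster 8 (62.1).

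The order of the clusters differed from gene to gene. For retinol oxidation, Adh1 went from cluster 10 (188, beyond its spread above the next) to 0 (52.6 ± 23.8), 1 (21.8 ± 12.6), 2 (8.05 ± 3.85), 9 (6.15 ± 8.79), 8 (4.08 ± 5.92) and 7 (1.87 ± 1.77 CPM). Adh7 went from 1 and 0 to 8 (29.0 ± 11.2), 10 (23.9 ± 15.7), 2 (9.32 ± 3.92), 9 (5.10 ± 4.84) and 7 (0.362 ± 0.772), with no neighbours beyond their spread. Both genes were lowest in cluster 7.

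For the retinaldehyde dehydrogenases, Aldh1a1 went from 10 to 8 (54.1 ± 17.6), 0 (44.6 ± 11.2), 1 (29.5 ± 6.43), 9 (15.7 ± 10.3) and 2 (9.60 ± 2.60), the last beyond its spread above 7 (1.81 ± 2.46). Aldh1a2 went from 7 and 10 to 9 (29.6 ± 22.6), 0 (27.2 ± 8.38), 2 (16.0 ± 15.6), 1 (6.99 ± 5.39) and 8 (4.23 ± 7.45), with no neighbours beyond their spread. Aldh1a3 dropped from cluster 7, beyond its spread, to 1 (27.2 ± 9.33), 10 (9.29 ± 9.65), 8 (6.67 ± 5.88), 0 (5.33 ± 3.13), 9 (4.33 ± 5.14) and 2 (3.55 ± 1.75). Aldh1a1 and Aldh1a3 thus had their lowest and highest means in the same cluster, 7.

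For the binding proteins, Crabp1 went from 8 to 10 (7.92 ± 24.4, of which rest 3 alone was at 85.1), 2 (5.51 ± 6.41), 9 (5.42 ± 16.8, with peak 2 at 53.3), 0 (1.79 ± 3.01), 7 (0.465 ± 0.885) and 1 (0.435 ± 1.11). Crabp2 dropped from cluster 2, beyond its spread, to 8, 9 (125 ± 104), 1 (84.6 ± 73.3), 7 (50.2 ± 47.8), 10 (19.6 ± 17.8) and 0 (14.1 ± 8.20). Rbp4 went from 8 and 10 to 0 (64.6 ± 18.8), 2 (57.1 ± 20.2), 1 (36.6 ± 14.2), 9 (29.7 ± 38.8) and 7 (10.2 ± 10.6). Apart from cluster 2 for Crabp2, no neighbours in these 3 orders differed beyond their spread. Rarres2 went from 0 through 10 and 1 to 8 (418 ± 159), 9 (240 ± 111), 7 (154 ± 78.5) and 2 (94.5 ± 37.7 CPM), again without gaps beyond the spread. Of the clusters with fibroblast markers that were not counted as fibroblast-like, the unnamed clusters 4 (C1qtnf3, Spon2) and 11 (Cytl1, Clu) held Crabp2 at 411 ± 90.3 (n = 7) and 298 ± 224 (n = 11) and Rbp4 at 131 ± 45.3 and 165 ± 143.

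Counted by cells, each gene was detected in a minority of fibroblasts other than Rarres2. A UMI was found in 12.9% of fibroblasts for Aldh1a1, 9.60% for Aldh1a2, 8.74% for Aldh1a3, 1.43% for Crabp1, 24.1% for Crabp2, 17.9% for Rbp4, 10.0% for Adh1, 12.6% for Adh7 and 62.3% for Rarres2, at a median of 5446 UMIs a cell. Vascular endothelial cells, with a median of 3176.5, gave shares to be read against: 0.848% for Aldh1a1, 0.509% for Aldh1a2, 0.622% for Aldh1a3, 0 of 1768 cells for Crabp1 (which allows up to 0.170%), 1.81% for Crabp2, 1.08% for Rbp4, 0.679% for Adh7 and 8.82% for Rarres2. How much of these shares is free RNA, and how much the cells' own mRNA, was not tested. For Adh1, which endothelium expresses, osteoblasts gave 0.573% at a median of 5270. Every fibroblast share lay above the share given for the same gene.

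With each cell thinned to 2000 UMIs, which leaves out 199 fibroblasts and 201 endothelial cells below that depth, the fibroblast shares were 5.54% for Aldh1a1, 4.92% for Aldh1a2, 3.94% for Aldh1a3, 0.740% for Crabp1, 14.0% for Crabp2, 9.21% for Rbp4, 5.44% for Adh1, 5.90% for Adh7 and 43.4% for Rarres2. The endothelial shares were 0.319% for Aldh1a1, 0.255% for Aldh1a2, 0.255% for Aldh1a3, 0 for Crabp1, 0.893% for Crabp2, 0.511% for Rbp4, 10.5% for Adh1, 0.319% for Adh7 and 5.42% for Rarres2. At this depth every fibroblast share but that of Adh1 lay above the endothelial one.

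Single clusters reached far higher shares. In cluster 7 a UMI of Aldh1a3 was in 45.7% of cells (Wilson 95% interval 42.8 to 48.6, for counting error only; 20.5% thinned) and of Aldh1a2 in 29.2% (26.6 to 31.9; 12.9% thinned). In cluster 10 Adh1 was in 36.6% (33.4 to 39.9; 25.1% thinned), Aldh1a1 in 22.4% (19.6 to 25.3; 13.7% thinned) and Aldh1a2 in 16.7% (14.3 to 19.4; 11.5% thinned). Even in the clusters with the highest levels, most cells gave no UMI of these dehydrogenases. In cluster 8 Crabp2 was in 38.8% (35.6 to 42.1; 23.6% thinned), Rbp4 in 31.2% (28.2 to 34.3; 19.3% thinned) and Crabp1 in 11% (9.06 to 13.2; 6.54% thinned), and Crabp1 in osteoblasts was in 11.5% (9.96 to 13.3; 7.25% thinned). Crabp2 in cluster 2, at a median of 9650 UMIs, was in 68.1% (66.0 to 70.1; 40.1% thinned), Adh7 in cluster 1 in 24.3% (22.5 to 26.2; 11.8% thinned) and Rarres2 in cluster 0 in 79.2% (77.6 to 80.7; 63.2% thinned). Endothelial cluster 6 had Adh1 in 25.1% (22.7 to 27.7; 16.6% thinned).

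Pairs of members in the same cells are given here as shares, with no test, over the fibroblasts of all libraries pooled. Of 36 pairs, in 16 the cells with one gene held the other in a higher share than all fibroblasts did, and in 20 they did not, some by little: of cells with Aldh1a1, 9.26% had Aldh1a2, against 9.60% of all. Of 980 fibroblasts with Aldh1a2, 182 also had Aldh1a3 (18.6%, against 8.74% of all fibroblasts) and 63 Adh7 (6.43% against 12.6%). Of 1020 with Adh1, 237 also had Adh7 (23.2% against 12.6%) and 97 Crabp2 (9.51% against 24.1%). Of 1318 with Aldh1a1, 205 also had Adh1 (15.6% against 10.0%) and 85 Aldh1a3 (6.45% against 8.74%). Of 2458 with Crabp2, 592 also had Rbp4 (24.1% against 17.9%). Depth is common to all genes of a cell, and its part in these counts was not tested.

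The pathway around the 9 genes was followed with 57 further genes in 7 lists: retinol dehydrogenases and reductases, retinyl ester and carotenoid enzymes, retinoic acid breakdown, retinol transport and binding, retinoid receptors, retinoic acid responsive genes, and chemerin receptors. Of the 57, 32 had enough counts to be tested between classes and 29 between fibroblast clusters.

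In vascular endothelium 14 of the 32 were higher and 7 lower than in fibroblasts, where 52.7% of all genes were called, with a median of 0.15 against 0.01 for all genes. Rbp7, a retinol-binding protein of endothelium and fat, ran from 52.2 through 196 to 341 CPM against 0.293 in fibroblasts (8.32, SE 0.21, adjusted p = 2.73e-57). Lipe, the hormone-sensitive lipase that also cleaves retinyl esters, was at 77.1 against 4.05 CPM (3.98), Ccrl2, a chemerin-binding receptor, at 20.4 against 1.39 (3.46) and Fabp5, a fatty acid carrier that also takes up retinoic acid, at 547 against 114 (3.30). Lrp1 was lower, at 28.4 against 421 CPM (-4.15), as was the receptor gene Rxrg (-3.63). Cluster 6, where Adh1 was high, held Cyp26b1, an enzyme that breaks down retinoic acid, at 81.0 ± 53.5 CPM and the retinaldehyde reductase Dhrs3 at 178 ± 62.7, a pair chosen after their values were seen.

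Other classes differed in single genes. Perivascular cells had 9 higher and 7 lower (39.5% of all genes called; median 0.06 against -0.14), with Ccrl2 at 67.8 CPM (5.10), Nr2f2, a nuclear receptor of veins, at 174 against 16.5 (3.03), and Cyp26a1 (-5.71), Lrp1 (-3.01) and Rxrg (-2.16) lower. Schwann cells had 3 higher and 3 lower (14.4%; median -0.34, or -0.02 at the bound, against -0.37), with Rxrg at 149, 158 and 158 CPM in their 3 libraries against 4.25 in fibroblasts (4.84, SE 0.54, adjusted p = 1.49e-11). Immune cells had 3 higher and 6 lower (30.2%; median -1.06, or -0.48 at the bound, against -0.46), with the retinal reductase Rdh12 at 96.2 against 0.566 CPM (6.54) and Ccrl2 at 78.7 (5.65). Osteoblasts had 7 and 7 (29.0%; 0.01 against -0.01), with Rdh12 (1.92) and Rai14 (1.45) higher and Cyp26a1 (-1.98) and Rarb (-1.76) lower. Muscle had 6 and 15 (44.8%), chondrocytes 6 and 11 (46.8%), lymphatic endothelium 5 and 12 (37.6%), proliferating cells 3 and 9 (27.2%) and tenocytes 2 and 5 (18.4%), with medians of -0.68, -0.18, -0.84 (-0.65 at the bound), -0.21 and -0.13.

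Among fibroblast clusters, breakdown, binding and receptor genes were high in different clusters. Cluster 8, with Crabp1, Crabp2 and Rbp4, had 9 of 29 higher and 4 lower (31.3% of all genes called; median 0.01 against 0.00). Its foremost gene was Cyp26a1, an enzyme that breaks down retinoic acid and is induced by it, which ran from 9.98 through 72.1 to 179 CPM (7.65, SE 0.26, adjusted p = 2.8e-30). Meis2 (1.92) and Rarres1 (1.29) were also higher, and Ret (-2.60) and the receptor Rarb (-2.09) lower.

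Cluster 7, with Aldh1a2 and Aldh1a3, had 7 higher and 7 lower (32.2%; median -0.05 against -0.01). The chemerin receptor Gpr1 was at 36.5 ± 24.6 CPM (4.78, SE 0.30, adjusted p = 4.46e-20), and other genes with large changes were the retinoic acid responsive Rarres1, from 11 through 57.9 to 122 CPM (4.58, SE 0.19, adjusted p = 4.27e-33), Tgm2, a transglutaminase, at 225 ± 110 (2.86) and Rarb at 17.7 ± 7.65 (2.21). Lpl (-2.92) was lower. Cluster 10, with Adh1, had 8 higher and 1 lower (18.2%; median 0.20 against -0.01): Ces1d, a carboxylesterase that acts on retinyl esters, at 14.3 ± 13.4 (5.14), the chemerin receptor Cmklr1 at 43.5 ± 13.3 (2.57), lipoprotein lipase Lpl at 396 ± 112 (2.41), Rdh10, the main retinol dehydrogenase of embryos, at 82.9 ± 59.8 (1.86), and Gpr1 (1.82). In this cluster genes for each oxidation step were high together with a chemerin receptor.

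Cluster 2 had 5 higher and 5 lower (25.3%; median -0.02), with Fabp5 at 339 ± 312 CPM (4.34), Cyp26a1 (2.97) and Rdh10 (0.84) higher and Cmklr1 (-1.60) and Lpl (-1.37) lower. Cluster 0 had 7 and 4 (19.3%; median -0.19), with Lpl (1.67), Ces1d (1.29) and Cyp26b1 (1.23) higher and Rarres1 (-2.86) lower, cluster 1 had 3 and 7 (16.9%; -0.06), with Gpr1 at 18.5 ± 10.1 (3.54) and Ces1d (1.82) higher and Rarres1 (-2.65) lower, and cluster 9 had 2 and 4 (10.7%; -0.11), with Rarb (1.44) higher and Cyp26b1 (-1.77) lower.

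Of 9 retinoic acid responsive genes tested, 5 were higher and 3 lower in cluster 8 (median 0.73, with 31.3% of all genes called). Cluster 7 had 4 and 2 (0.08, 32.2%), cluster 2 had 2 and 2 (0.13, 25.3%) and cluster 9 had 2 and 2 (-0.15, 10.7%). Cluster 10 had 1 and 0 (0.48, 18.2%), cluster 0 had 1 and 1 (-0.29, 19.3%) and cluster 1 had 1 and 4 (-0.68, 16.9%).

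By label, none of the 9 genes was called in fibroblast-like cells. The 3 comparisons with libraries labelled rest called 0 members, and 0% of 11514 genes for peak, 0% for resolving and 0% for resolved. edgeR gave an unadjusted p under 0.05 to 69, 112 and 90 genes in these, and DESeq2 also called 0 (52, 85 and 60 genes unadjusted). For every member the libraries of each label overlapped those labelled rest, and fold changes ran from -1.88 (Crabp1, resolved) to 0.82 (Aldh1a3, resolving). Crabp1 had the lowest unadjusted p, 0.0164 for resolved and 0.0296 for peak: its mean was 13.8 CPM in libraries labelled rest (3.51 to 25.1) against 4.19 at peak, 7.86 at resolving and 3.51 at resolved, with adjusted p of 1.0, 0.999 and 1.0. With the suffix run as a block, edgeR again called 0 genes in each (357, 388 and 446 unadjusted).

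The spread within labels was wide. Aldh1a2 was at 26.7, 58.1 and 30.8 CPM in the libraries labelled rest, 32.9, 39.2 and 20.5 at peak, 25.9, 34.5 and 20.5 at resolving, and 28.0, 31.0 and 21.3 at resolved. Crabp2 was at 52.0, 348 and 172, then 36.5, 271 and 66.8, then 33.3, 203 and 53.4, and 295, 187 and 39.2. Within each label Crabp2 differed several times over, and its high libraries fell in suffix runs 4 to 6 and 7 to 9. The 57 pathway genes, 37 of them tested, had 0 calls in each comparison and medians of -0.03, -0.01 and -0.05.

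By suffix run the same cells differed strongly. Fibroblasts of libraries 4 to 6 held far more Crabp2 and less of 5 other members than those of libraries 1 to 3. Here 7 of the 9 genes were called, 2 higher and 5 lower, where 35.2% of all genes were, with a median of -1.32 against -0.02. Crabp2 was at 33.3, 36.5 and 52.0 CPM in libraries 1 to 3 and 271, 295 and 348 in libraries 4 to 6, with no overlap (2.99, SE 0.19, adjusted p = 3.74e-08, higher in 3 of 3). Aldh1a3 fell from 49.3, 50.0 and 50.5 to 9.11, 11.3 and 13.7 (-2.07, SE 0.22, adjusted p = 4.01e-06, lower in 3 of 3) and Adh7 from 44.8, 49.7 and 75.3 to 11.7, 15.3 and 16.4 (-1.90, SE 0.22, adjusted p = 9.71e-06, lower in 3 of 3), again without overlap. Rarres2 (507 to 621 against 168 to 231; -1.41, SE 0.15, adjusted p = 4.35e-06) and Aldh1a1 (38.0 to 42.9 against 12.8 to 18.6; -1.32, SE 0.16, adjusted p = 1.45e-05) did not overlap either and were lower in 3 of 3. Crabp1 (4.27, 11.7 and 25.1 against 2.78, 3.51 and 3.70 CPM; -1.95, SE 0.54, adjusted p = 0.00937, lower in 3 of 3) was not called without rest 1 (-1.16) or with thinned cells, and Aldh1a2 (25.9, 26.7 and 32.9 against 28.0, 39.2 and 58.1, with overlap; 0.65, SE 0.21, adjusted p = 0.0227) was not called without rest 1 (0.57), rest 2 (0.30) or resolving 1 (0.58) or with the highest doublet scores removed.

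The makeup of the fibroblasts differed between those runs too. Cluster 2 was 0.089% of fibroblasts in libraries 1 to 3, 52.3% in 4 to 6, 18.6% in 7 to 9 and 0.23% in 10 to 12, and cluster 9 was 1.29%, 2.34%, 26.4% and 2.15%. Clusters 0 and 1 were 36.9% and 31.7% in libraries 1 to 3, 17.8% and 6.38% in 4 to 6, 15.7% and 14.6% in 7 to 9, and 32.8% and 30.4% in 10 to 12, and cluster 7 was 7.25%, 8.22%, 13.7% and 13.9%. The clusters rich in Adh7 and Rarres2 were thus scarcer, and the cluster rich in Crabp2 more common, in the libraries with those levels. The remaining shares were 14.0%, 5.81%, 5.82% and 9.24% for cluster 8 and 8.81%, 7.14%, 5.16% and 11.3% for cluster 10. The unnamed cluster 4 made up 28.8% of library rest 3, 17.71% of resolving 2 and 27.08% of resolved 2, and at most 3.0% of any other, and the unnamed cluster 11 from 0.44% (peak 1) to 5.17% (resolving 2).

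With clusters 0, 1, 7, 8 and 10 weighted equally in each library, tested with limma and without clusters 2 and 9, 2 members were called between libraries 4 to 6 and 1 to 3: Aldh1a3 (-1.17) and Aldh1a2 (0.86). Crabp2 (0.40), Crabp1 (-0.76), Adh7 (-0.27), Aldh1a1 (-0.21) and Rarres2 (0.18) were not called. Within clusters, Crabp2 was at 2.48 in cluster 7, where it was called, and at 1.65 in cluster 0, 1.60 in cluster 1 and -0.18 in cluster 8, where it was not (adjusted p = 0.117, 0.166 and 0.881). Summed markers in fibroblast-like cells also differed: of 17 marker lists, the sums of 13 did not overlap between libraries 1 to 3 and 4 to 6. The 7 fibroblast genes (Gsn the most abundant) lay between 54180 and 70970 CPM in libraries 1 to 3 and between 17870 and 21170 in 4 to 6, lower in the latter. Also lower there were the 5 lining genes (Prg4; 13300 to 20310 against 4967 to 7110), the 5 sublining genes (Pi16; 1912 to 2807 against 922.8 to 1100), 7 osteoblast genes (Bglap2; 253.5 to 476.4 against 76.09 to 114.0), 7 chondrocyte genes (Comp; 1528 to 1864 against 1068 to 1320), 6 Schwann genes (S100b; 72.54 to 88.96 against 20.61 to 22.65), 7 vascular endothelial genes (Tek; 26.69 to 41.62 against 22.78 to 24.13) and the 4 hepatocyte genes. Higher were 6 proliferation genes (Birc5; 5.706 to 7.106 against 34.49 to 52.63), 8 perivascular genes (Acta2; 74.1 to 120.2 against 164.0 to 255.0), 6 lymphatic endothelial genes (Pdpn; 153.4 to 174.1 against 293.9 to 323.2), 5 erythroid genes (Hbb-bs; 170.5 to 274.9 against 429.1 to 1170) and 6 adipocyte genes (Fabp4; 19.79 to 25.39 against 81.93 to 132.8). Tenocyte, muscle, immune and keratinocyte sums overlapped. Of all these genes Lep and Ttr were at 0 over all fibroblasts, and the part of these markers in the result was not tested.

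Between libraries 7 to 9 and 4 to 6, 3 of the 9 genes were called, where 17.4% of all genes were, with a median of 0.07 against 0.02. Crabp2 was lower, at 172, 187 and 203 CPM against 271, 295 and 348, with no overlap (-0.75, SE 0.17, adjusted p = 0.00584, lower in 3 of 3). Aldh1a3 was higher, at 16.3, 24.4 and 24.6 against 9.11, 11.3 and 13.7 (0.87, SE 0.24, adjusted p = 0.0161, higher in 3 of 3), and Rbp4 lower, at 32.8, 41.2 and 60.9 against 67.1, 69.0 and 85.2 (-0.76, SE 0.24, adjusted p = 0.0348, lower in 3 of 3). Neither overlapped. The Crabp2 call ended without upper limits on genes and UMIs (-0.44). The Aldh1a3 call ended without rest 2 (0.74), peak 2 (0.86) or resolving 2 (0.72), and the Rbp4 call without rest 2 (-0.79), rest 3 (-0.72), peak 2 (-0.83), resolved 1 (-0.66) or resolved 2 (-0.53), and both ended with thinned cells (0.53 and -0.55). With tenocytes and unnamed clusters that had fibroblast markers added, cluster 4 among them, none of the 3 was called (-0.06, 0.03 and -0.04), while Adh1 and Aldh1a2 were. With clusters weighted equally the 3 were at 0.19, -0.01 and 0.02 in the order named.

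Between libraries 10 to 12 and 1 to 3, 0 of the 9 genes were called by edgeR, where 1.27% of all genes were (1827 genes at an unadjusted p under 0.05), with a median of -0.38 against -0.01. DESeq2 called 175 genes higher and 76 lower, and none of the 9. Fold changes ran from -1.62 (Crabp1) to 0.48 (Crabp2).

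**Figure D3:**
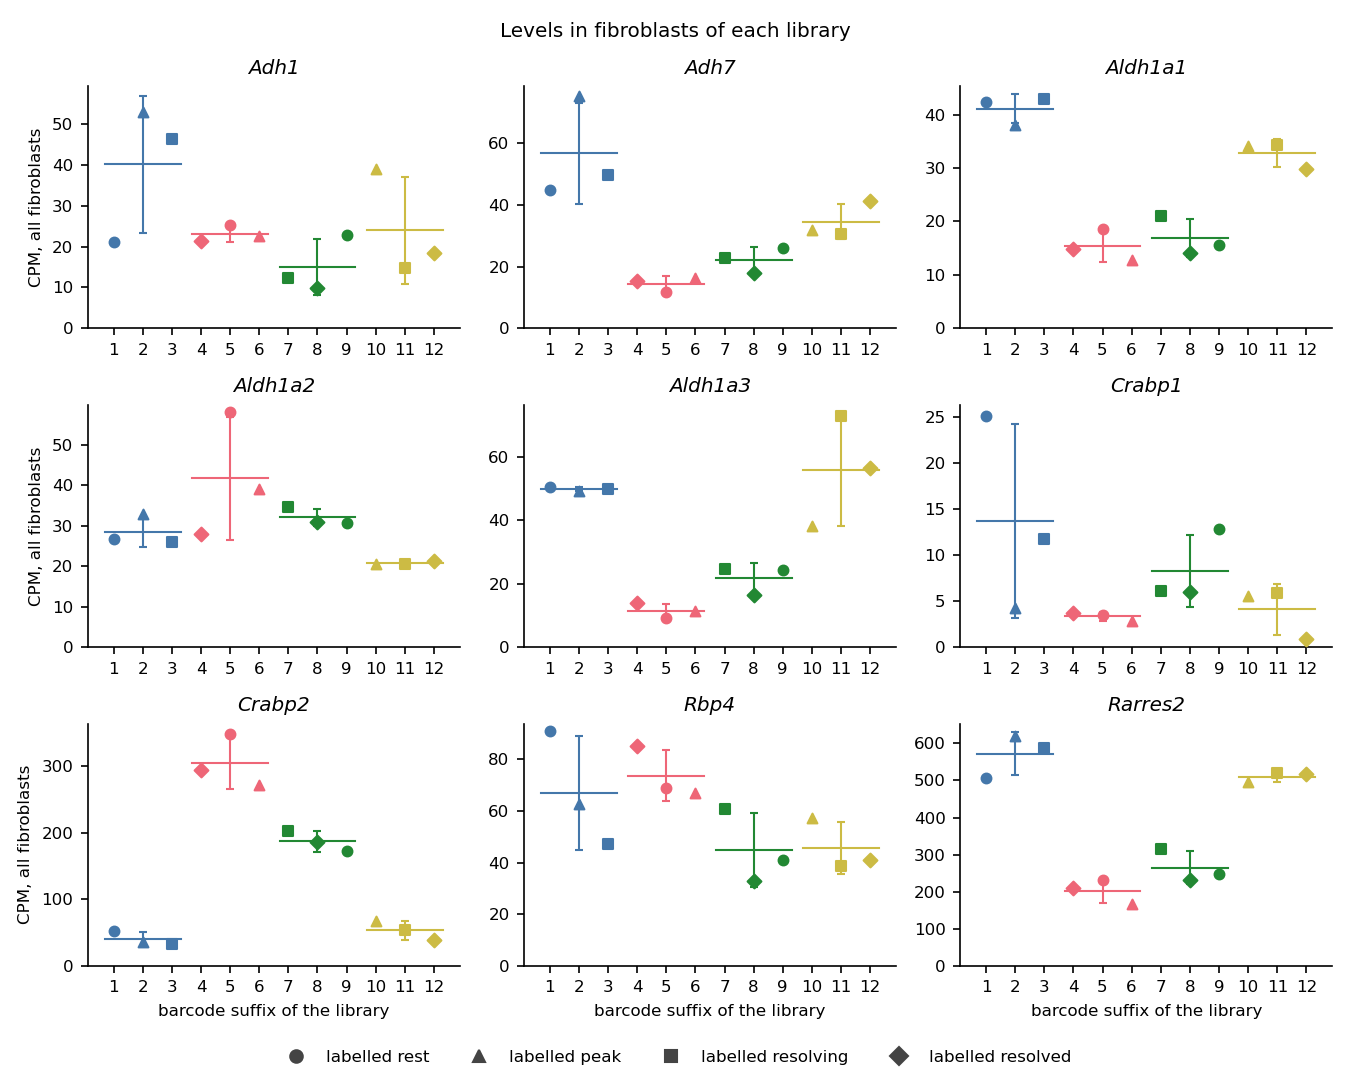
Level of each of the 9 genes in all fibroblast-like cells, in CPM (vertical axis), for the 12 libraries in order of barcode suffix (horizontal axis), with lines for the mean and error bars for the SD of each suffix run and marker shapes for the labels. Crabp2 lies at 271 to 348 in libraries 4 to 6 and at 33.3 to 52.0 in libraries 1 to 3, and libraries of one label are scattered over the range.

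Of the other pathway genes, 4 of 37 were higher and 11 lower in libraries 4 to 6 than in 1 to 3 (35.2% of all genes called; median -0.18 against -0.02). Fabp5 rose from 7.48 ± 0.748 to 400 ± 247 CPM (5.81, SE 0.39, adjusted p = 5.88e-08, n = 3 libraries each). Of 3 chemerin receptors the 2 tested fell, Gpr1 from 16.3 ± 3.66 to 2.28 ± 0.312 (-2.74) and Cmklr1 from 14.5 ± 0.645 to 4.72 ± 0.035 (-1.53). Stra6, the cell surface receptor for retinol-binding protein (-2.01), Dhrs9 (-1.40) and Rarb (-1.32) also fell. In libraries 7 to 9 against 4 to 6, 4 were higher and 3 lower (17.4%; 0.15 against 0.02), with Fabp5 (-3.23) and Ces1d (-3.16) lower and Rarb higher, from 1.91 to 9.41 CPM (2.27).

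Members also differed between runs within single clusters. In the lining-like cluster 7, 4 of the 5 members with enough counts to be tested were called between libraries 4 to 6 and 1 to 3, where 15.1% of all genes were. Aldh1a2 was at 51.0, 82.1 and 97.6 CPM in libraries 1 to 3 and 149, 253 and 258 in 4 to 6 (1.52, SE 0.22, adjusted p = 8.82e-05, higher in 3 of 3), while Aldh1a3 was at 261, 280 and 306 and then 60.8, 114 and 126 (-1.57, SE 0.20, adjusted p = 1.92e-05, lower in 3 of 3). Neither overlapped, so the 2 dehydrogenases of this cluster went in opposite directions. Rarres2 went from 210, 226 and 339 to 65.9, 116 and 139 (-1.33, SE 0.25, adjusted p = 0.00106, lower in 3 of 3) and Crabp2 from 4.8, 19.3 and 32.4 to 63.4, 85.7 and 152 (2.48, SE 0.66, adjusted p = 0.0132, higher in 3 of 3). The Crabp2 call ended without rest 2 (1.99) or peak 1 (2.02).

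Between libraries 7 to 9 and 4 to 6 in cluster 7, 1 of 5 members tested was called, where 3.49% of all genes were: Aldh1a2, at 98.7, 99.2 and 113 CPM, was lower without overlap (-1.11, SE 0.21, adjusted p = 0.00503, lower in 3 of 3).

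**Figure D4:**
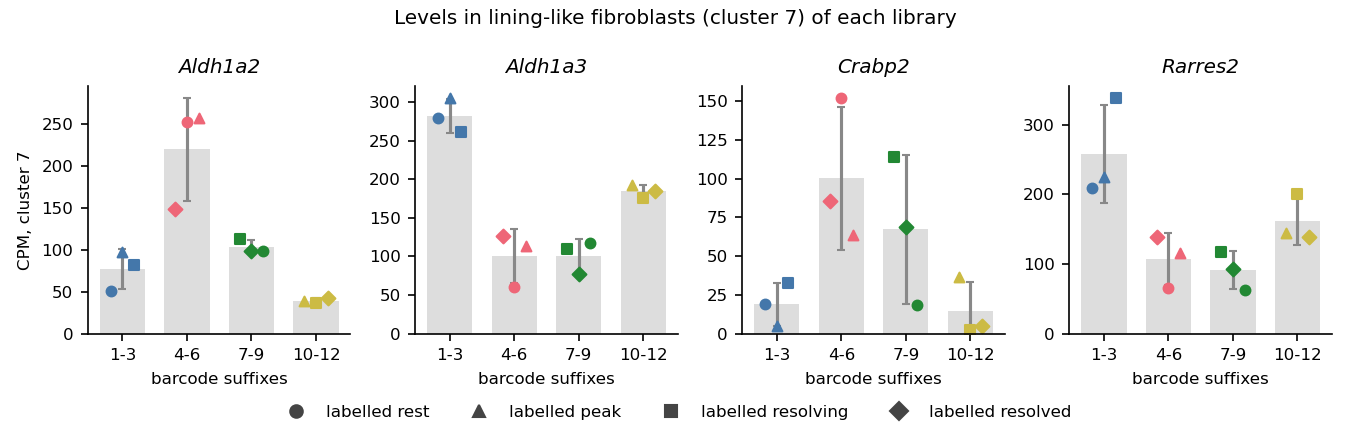
Levels of Aldh1a2, Aldh1a3, Crabp2 and Rarres2 in cluster 7 in CPM (vertical axis) by suffix run (horizontal axis), with bars for the mean, error bars for the SD of 3 libraries and points for libraries shaped by label. Aldh1a2 is highest in libraries 4 to 6 (149 to 258) where Aldh1a3 is lower (60.8 to 126) than in libraries 1 to 3 (261 to 306).

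In cluster 10, 1 of 5 members tested was called between libraries 4 to 6 and 1 to 3, where 2.37% of all genes were: Rarres2, at 922, 950 and 962 against 419, 523 and 621 CPM, was higher with no overlap (1.0, SE 0.20, adjusted p = 0.0153, higher in 3 of 3). The call ended without rest 1 (1.01), rest 2 (0.97), peak 2 (1.0) or resolving 1 (0.87). In cluster 2, between libraries 7 to 9 and 4 to 6, 3 of 8 members tested were called, where 6.48% of all genes were. Rbp4 was lower, at 35.0, 39.9 and 44.8 against 66.7, 70.1 and 86.3 (-0.91, SE 0.16, adjusted p = 0.00771, lower in 3 of 3), Aldh1a2 lower, at 2.57, 4.74 and 9.31 against 15.1, 18.7 and 45.4 (-2.23, SE 0.59, adjusted p = 0.0415, lower in 3 of 3), and Crabp1 higher, at 4.15, 5.92 and 18 against 0.928, 1.11 and 2.92 (2.32, SE 0.61, adjusted p = 0.0414, higher in 3 of 3). None of these overlapped. Calls ended without resolved 2 for Rbp4 (-0.80), without rest 3 (-2.01), resolving 2 (-2.77) or resolved 2 (-2.03) for Aldh1a2, and without rest 3 (1.62) or resolving 2 (2.50) for Crabp1.

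In cluster 0, 1 of 7 members tested was called between libraries 10 to 12 and 1 to 3, where 0.873% of all genes were: Crabp2, at 15.4, 19.3 and 28.1 against 2.05, 5.08 and 10.2 CPM, was higher without overlap (2.01, SE 0.45, adjusted p = 0.0351, higher in 3 of 3). It ended without peak 1 (1.47), peak 3 (2.22), resolving 1 (1.98), resolving 3 (1.82) or resolved 3 (2.01), or with total counts. The other 12 comparisons within clusters called 0 members, where 1.38% of all tests were calls. Over all 17 comparisons, 5 of 101 tests of a member were higher and 5 lower, against 1.67% and 1.28% of all tests.

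Across 22 clusters, each gene had partners with a like pattern among 7775 genes, given as Pearson's r over clusters that share the same libraries. Values are among the highest of 7775 for each gene, with no test. Adh1 was most like Abca8b (0.744), Deptor (0.723) and Abca8a (0.702), and Adh7 most like Cldn10 (0.914), Olfml1 (0.903) and Rab30 (0.883). Among the genes most like Aldh1a1 were Lama2 (0.786) and Rgma (0.739). Aldh1a2 was most like Cyp1b1 (0.844), Adgrd1 (0.811) and Pdgfra (0.808), and among those most like Aldh1a3 were Gnpnat1 (0.747) and Vps51 (0.739). Crabp1 was most like Wnt16 (0.886), Ptprd (0.847) and Cdh11 (0.826), Crabp2 most like Steap2 (0.877), Ptprs (0.873) and P4ha3 (0.871), Rbp4 most like Smoc2 (0.932), Sertad4 (0.89) and Ptges (0.886), and Rarres2 most like Cygb (0.924), Cbr3 (0.877) and Serping1 (0.877). Between members the highest were Crabp2 with Rbp4 (0.784), Adh7 with Rbp4 (0.734) and Adh7 with Rarres2 (0.701), Aldh1a2 with Aldh1a3 was at 0.506, and the lowest was Adh1 with Crabp1 (-0.179).

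In the GRCm38 genome the 9 genes lie on 5 chromosomes. Adh7 (ENSMUSG00000055301, chr3:138217760-138233382) and Adh1 (ENSMUSG00000074207, chr3:138260991-138290698) are close together on the plus strand of chromosome 3, and Crabp2 (ENSMUSG00000004885, chr3:87948666-87953376, plus strand) is on the same chromosome. Although they are close, Adh1 and Adh7 had different clusters on top, 10 for Adh1 and 1 for Adh7. Crabp1 (ENSMUSG00000032291, chr9:54764748-54773110) and Aldh1a2 (ENSMUSG00000013584, chr9:71215789-71296243) are on the plus strand of chromosome 9, Aldh1a1 (ENSMUSG00000053279, chr19:20492715-20643465, plus) and Rbp4 (ENSMUSG00000024990, chr19:38116629-38125281, minus) on chromosome 19, Aldh1a3 (ENSMUSG00000015134, chr7:66390890-66427517, minus) on chromosome 7 and Rarres2 (ENSMUSG00000009281, chr6:48569696-48572789, minus) on chromosome 6. Counted genes overlap 3 of them on the opposite strand, Lrrc61 at Rarres2, Gm16559 at Adh1 and 0610031O16Rik at Adh7, and the labels do not state how strand was used in counting.

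Promoters of 300 bases, from 250 before to 50 after the start, were taken from a table of RefSeq promoters on GRCm38.p6, which matched 6 of the 9 genes: Aldh1a1, Aldh1a2, Crabp1, Rbp4, Adh1 and Adh7. Aldh1a3, Crabp2 and Rarres2 had no entry in that table. They were searched on both strands for the retinoic acid receptor half-site, written here in its usual form as AGGTCA, with guanine in front as the form GGGTCA, and in the looser spellings given by AGTTCA and, with guanine in front again, by GGTTCA, and for direct repeats of it 5 or 2 bases apart (DR5 and DR2). Of 32851 mouse promoters 43.7% hold a half-site, 0.0974% a DR5 and 0.268% a DR2. A half-site was found once in one of the 2 Aldh1a1 promoters, once in one of the 2 Rbp4 promoters and once in that of Adh7, and none in those of Aldh1a2, Crabp1 and Adh1. Those with a half-site are shown. Their genes had high levels in clusters 10, 8 and 1, but so did genes without one, such as Adh1 in 10 and Crabp1 in 8. Also shown are the promoters of Cyp26a1 and Rarb, which were called in clusters 8 and 7 and hold 2 and 3 half-sites with a DR5 each. Half-sites are in capitals and the sequences run 5′ to 3′ on the gene's strand.
Aldh1a1 (chr19:20601718-20602017, plus strand): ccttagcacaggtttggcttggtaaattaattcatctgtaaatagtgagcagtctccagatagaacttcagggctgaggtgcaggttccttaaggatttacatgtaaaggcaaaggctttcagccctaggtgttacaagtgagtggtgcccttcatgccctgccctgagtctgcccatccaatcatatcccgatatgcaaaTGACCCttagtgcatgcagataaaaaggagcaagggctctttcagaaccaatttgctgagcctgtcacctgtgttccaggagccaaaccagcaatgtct
Rbp4 (chr19:38125272-38125571, minus strand): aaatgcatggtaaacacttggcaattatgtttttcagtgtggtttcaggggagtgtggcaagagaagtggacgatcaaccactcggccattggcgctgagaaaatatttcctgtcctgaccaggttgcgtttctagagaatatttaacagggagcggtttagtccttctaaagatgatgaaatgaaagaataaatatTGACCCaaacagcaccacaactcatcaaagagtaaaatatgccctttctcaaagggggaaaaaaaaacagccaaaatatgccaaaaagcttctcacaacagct
Adh7 (chr3:138217523-138217822, plus strand): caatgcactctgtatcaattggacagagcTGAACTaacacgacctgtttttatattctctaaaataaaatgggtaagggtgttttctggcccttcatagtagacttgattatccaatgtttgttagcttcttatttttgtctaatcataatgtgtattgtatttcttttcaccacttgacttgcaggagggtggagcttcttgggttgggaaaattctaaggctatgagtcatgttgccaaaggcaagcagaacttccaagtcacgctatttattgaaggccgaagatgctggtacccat
Cyp26a1 (chr19:37697558-37697857, plus strand): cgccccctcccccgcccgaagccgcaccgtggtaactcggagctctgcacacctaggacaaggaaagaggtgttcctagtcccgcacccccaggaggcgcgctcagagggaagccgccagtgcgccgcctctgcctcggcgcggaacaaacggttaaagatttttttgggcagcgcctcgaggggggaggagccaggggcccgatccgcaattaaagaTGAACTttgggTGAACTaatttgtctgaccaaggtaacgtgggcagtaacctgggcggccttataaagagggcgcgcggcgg
Rarb (chr14:16575427-16575726, minus strand): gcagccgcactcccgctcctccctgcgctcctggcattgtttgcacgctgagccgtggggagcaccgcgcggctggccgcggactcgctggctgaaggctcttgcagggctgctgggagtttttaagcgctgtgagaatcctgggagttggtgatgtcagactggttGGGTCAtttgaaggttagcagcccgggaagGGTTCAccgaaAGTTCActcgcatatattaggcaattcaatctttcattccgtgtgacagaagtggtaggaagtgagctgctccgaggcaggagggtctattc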

How the data were processed

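The deposited counts are UMI counts per gene and cell, made by the authors with Cell Ranger 2.1.1 (per the study's methods) on mm10, for 12 libraries, with a median of 5358 UMIs per deposited cell in each. Why this median was the same in libraries of 1277 to 2817 deposited cells was not tested. Totals and depths of the libraries may therefore not be as sequenced. Cells with over 500 and under 5000 genes, over 500 UMIs and fewer UMIs than the study's upper limit were kept. That limit differs by label: 20000 for rest and resolved libraries, 40000 for peak, 25000 for resolving 1 and 30000 for resolving 2 and 3. Alternatives lifted the upper limits or capped mitochondrial UMIs. Cells were normalised to 10000 UMIs and clustered with scanpy 1.11.5 and leidenalg 0.10.2 (2000 variable genes, 30 principal components, 20 neighbours, resolution 1) without the 66 members and pathway genes. Clusters were named from 17 marker lists, with scoring limits set after the clusters were seen. Counts were summed per library and class or cluster (at least 10 cells) and tested with edgeR 4.0.16 (TMM, quasi-likelihood, filterByExpr, library as a block for classes and clusters) in R 4.3.3. DESeq2 1.42.0 and limma 3.58.1 served for alternatives. Replicate numbers were not taken to pair libraries: deviations of libraries with the same number correlated from -0.563 to 0.692. For 6 of the 12 libraries the best match by deviation had the same number. By the likeness used for suffix runs, most libraries were most alike to one with their own number. Libraries 1 to 3 are all replicate 1 and libraries 10 to 12 all replicate 3, so run and number cannot be told apart there. Genes named are the 9 members, up to 6 called pathway genes per comparison with the largest fold change, and the 3 most alike genes per member. Some genes that meet these rules are not reported here. Members, lists and suffix runs were chosen with earlier results of these data known. The procedure was tested on simulated data.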

Additional observations from a re-analysis of the deposited data

Results flagged for a closer look

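Rarres2, the chemerin gene, moved in opposite directions in a pair of fibroblast clusters between the same libraries. Between libraries with suffixes 4 to 6 and 1 to 3, its log2 ratio of mean CPM was 0.86 in cluster 10, with every library higher, and -1.27 in cluster 7, with every library lower, a gap of 2.13. Between libraries 10 to 12 and 1 to 3, the log2 ratio was 0.66 in cluster 8, with every library higher, and -0.68 in cluster 7, with every library lower, a gap of 1.34. In the first comparison both were called by edgeR (adjusted p = 0.0153 and 0.00106), and in the second neither was (adjusted p = 0.414 and 0.221). The difference between clusters was not tested in either case.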

How the results depend on the processing

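Calls of the 9 genes mostly kept their direction and side of the thresholds. A value not called counts as kept here while it stayed uncalled, whatever its sign, and reversals are of called values. Over 1971 values of the class comparisons under alternatives, 1904 were kept, 35 lost the call, 31 gained it and 1 reversed. Over 1386 values of the fibroblast clusters 1338 were kept, 42 lost the call, 6 gained it and 0 reversed. By label all 621 values stayed uncalled. Over 594 values by suffix run 552 were kept, 24 lost the call, 14 gained it and 4 reversed.

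Calls of a gene higher in a class than in fibroblasts went from 5 to 2 with DESeq2, and those lower from 63 to 35 with cells thinned to 2000 UMIs, where 6 of the 9 genes and 6782 genes in all were tested and Schwann cells dropped out. Leaving out 1 library gave 4 to 5 higher and 56 to 66 lower. With fibroblast clusters weighted equally (5 clusters, limma), members called between libraries 4 to 6 and 1 to 3 went from 7 to 2, between 7 to 9 and 4 to 6 from 3 to 1, and between 10 to 12 and 1 to 3 from 0 to 1. Without a filter on low counts the last 2 were 6 and 2, with thinned cells the count for 7 to 9 was 1, and with unnamed clusters and tenocytes added that for 10 to 12 was 1 and that for 7 to 9 was 2, of other genes. Leaving out 1 library gave 1 (without rest 2 or peak 2) to 4 for 7 to 9 and 6 to 7 for 4 to 6. Reversed values were Aldh1a1 in muscle with thinned cells (-0.17) and, with equal weights, Rarres2 for 4 to 6 (0.18) and Crabp2 (0.19), Aldh1a3 (-0.01) and Rbp4 (0.02) for 7 to 9. Apart from the fewer genes of the thinned cells, the cause was not tested.

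By label, edgeR called 0 genes with the replicate block (105, 145 and 113 unadjusted, beside the counts given above for the main comparison). The same held with the suffix run as a block, RLE size factors, total counts, no filter on low counts and thinned cells. Under every alternative run, 0 members were called. Alternatives within clusters between runs were chosen after seeing the data: RLE size factors, total counts and leaving out each library kept 1330 of 1356 values, with 18 calls lost, 8 gained and 0 reversed. Leaving out 1 library gave 2 to 6 members higher and 3 to 6 lower, against 5 and 5. The cause was not tested.

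Depth limits what is seen of rare mRNAs such as Crabp1, with a UMI in 1.43% of fibroblasts, and of small classes: 3 counts over all immune cells are 8.39 CPM. With 3 pools for each label or run, a change under the spread between pools was not detectable. Suffix runs are read from barcodes, the labels do not say what they stand for, and run, cluster makeup and any difference in handling cannot be told apart.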
